A study of Mus musculus with 12 samples.

Results

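The transporters described here are 10 genes that move bile acids, bilirubin, phospholipid, steroid conjugates and drugs into and out of hepatocytes. They were chosen by gene symbol from the 55487 genes of the deposited tables, and all 10 were found and passed the filter on low counts. Among them, 4 are uptake carriers of the organic anion transporting polypeptide family (Slco1a1, Slco1a4, Slco1b2 and Slco2b1) and 6 are ATP-driven exporters (Abcb4, Abcc2, Abcg2, Abcb1a, Abcc3 and Abcc4). RNA of whole liver tissue came from 12 males, 16 to 18 months old, in 4 groups of 3. The fasted knockout and fed knockout groups were homozygous for a floxed Foxo3 allele and positive for Alb-cre, a Cre transgene driven by the albumin promoter and so active in hepatocytes. The fasted control and fed control groups carried floxed Foxo3 without Cre, so the genotypes differ in the transgene as well as in Foxo3. Fasted mice had no food overnight, and fed mice ate freely. FoxO3, the product of the floxed gene, is a transcription factor of fasting and stress responses that insulin restrains.

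As background, hepatocytes take organic anions from blood across the basolateral membrane, and the Slco carriers do this without sodium. Conjugates and bile acids then leave across the canalicular membrane into bile, where Abcb4 places phosphatidylcholine in the outer leaflet, Abcc2 exports conjugated bilirubin and glutathione conjugates, Abcg2 exports sulfated conjugates and urate, and Abcb1a, a mouse P-glycoprotein, exports hydrophobic drugs. Abcc3 and Abcc4 sit in the basolateral membrane and return conjugates and bile acids to blood, so the canalicular name does not cover them. In mouse liver, Slco1a1 is known as a male-predominant gene, and Slco1a4 and Abcc4 are known as female-predominant.

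Totals ranged from 17520058 to 22414976 counts per library. Levels are CPM, each count over the library total scaled by its TMM factor unless TPM, which also corrects for length, is named. Differences are log2 fold changes from edgeR's quasi-likelihood test, with Benjamini-Hochberg adjustment over 15862 tested genes and a threshold of 0.05. Their standard errors (SE) were derived from that test, as the absolute log2 fold change over the square root of its F statistic. Foxo3 itself had 46.6, 53.6 and 53.4 CPM in the fasted knockout livers, against 44.3, 39.9 and 38.1 CPM in the fasted control livers, and 59.4, 58.8 and 62.2 CPM in the fed knockout livers, against 45.5, 44.5 and 50.4 CPM in the fed control livers. These counts sum over the whole gene, so they do not check the deletion, and the groups are named as labelled. Hepatocyte markers were abundant in every library, with 11 markers summing to 89660 to 116200 CPM in fasted knockout, 75400 to 126200 CPM in fasted control, 98110 to 114100 CPM in fed knockout and 74190 to 125800 CPM in fed control livers. In bulk tissue, fewer cells of a type and less RNA per cell cannot be told apart. The labels give no batch, so a batch that coincides with a group cannot be told apart from it.

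The fed control replicate 3 library stands apart. Among all 12 libraries it had the lowest level of 7 of 16 male-biased liver genes and of 7 of 11 hepatocyte markers, and the highest level of 8 of 12 liver endothelial, 9 of 12 stellate and 6 of 10 T, NK and B cell markers. Its summed levels were 761.5 CPM for stellate, 534.8 CPM for endothelial, 54.4 CPM for T, NK and B cell and 178 CPM for cholangiocyte markers, each the highest of the fed control group. Of the 8 tested cholangiocyte markers, only 2 were highest in this library. Its Spp1 count was 2923, against 371 and 597 in fed control replicates 1 and 2. This library also held the lowest values of Slco1a1 and Slco1a4 and the highest of Abcb1a, Abcc2 and Abcc4. The part of these markers in the transporter values was not tested, and transporter changes that rest on this library are given with and without it. Fed knockout replicate 1 was also extreme. It had the lowest level of 13 of 15 PPAR alpha targets and 7 of 15 female-biased liver genes, and the highest of 8 of 17 other exporters and flippases. It held the lowest Abcb4, Abcc3 and Slco1b2. Without it, 88 genes were called for fasting in knockout livers, in place of 393. Leaving out any other knockout library gave 148 to 238. The Abcc3 change in knockout livers was then 0.70 without fed knockout replicate 1 (edgeR adjusted p 0.112).

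The uptake carriers Slco1b2, Slco1a4 and Slco1a1 lie close together on mouse chromosome 6, and Abcb1a and Abcb4 on chromosome 5. In the deposited mm10 annotation, Slco1a4 (chr6:141805440-141856199, minus strand) and Slco1a1 (chr6:141907282-141946962, minus strand) are separated by 51082 bases with 0 protein-coding genes between them. Abcb1a (chr5:8660077-8748575, plus strand) and Abcb4 (chr5:8893717-8959231, plus strand) are 145141 bases apart with Abcb1b between them. The other members are Slco1b2 (chr6:141629518-141686646, plus strand), Slco2b1 (chr7:99657804-99711340, minus strand), Abcc2 (chr19:43782192-43840740, plus strand), Abcc3 (chr11:94343295-94392997, minus strand), Abcc4 (chr14:118482692-118706219, minus strand) and Abcg2 (chr6:58584523-58695676, plus strand). Within the Slco1a1 and Slco1a4 pair and the Abcb1a and Abcb4 pair, fasting changes differed in sign or size, and this was not tested. The 250 bases before a start site of each of these 4 genes are shown for that reason. They are RefSeq windows on GRCm38.p6, given 5′ to 3′ on the gene's strand, and capitals mark matches to searched motifs.
Slco1a1: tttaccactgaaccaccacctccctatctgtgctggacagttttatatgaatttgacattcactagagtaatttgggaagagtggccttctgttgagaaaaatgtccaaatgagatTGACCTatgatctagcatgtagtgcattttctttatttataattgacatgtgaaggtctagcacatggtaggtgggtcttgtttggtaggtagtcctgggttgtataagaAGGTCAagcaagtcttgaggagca
Slco1a4: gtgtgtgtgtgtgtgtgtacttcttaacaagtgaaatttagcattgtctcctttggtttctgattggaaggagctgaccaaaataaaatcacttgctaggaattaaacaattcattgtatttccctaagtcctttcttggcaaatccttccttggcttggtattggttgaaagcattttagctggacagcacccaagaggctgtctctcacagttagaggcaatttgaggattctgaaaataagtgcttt
Abcb4: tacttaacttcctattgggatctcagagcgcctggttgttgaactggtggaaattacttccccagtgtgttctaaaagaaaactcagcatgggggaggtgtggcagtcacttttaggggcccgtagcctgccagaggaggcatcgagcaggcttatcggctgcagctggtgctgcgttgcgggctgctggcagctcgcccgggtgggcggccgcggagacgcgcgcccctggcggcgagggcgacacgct
Abcb1a: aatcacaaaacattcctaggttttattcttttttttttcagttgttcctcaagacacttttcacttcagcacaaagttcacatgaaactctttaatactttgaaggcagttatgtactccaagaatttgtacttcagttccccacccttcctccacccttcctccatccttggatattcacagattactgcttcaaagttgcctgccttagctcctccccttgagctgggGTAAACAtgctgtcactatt

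The windows are chr6:141946963-141947212 for Slco1a1, chr6:141856221-141856470 for Slco1a4, chr5:8893471-8893720 for Abcb4 and chr5:8566841-8567090 for Abcb1a. The Abcb1a start used by RefSeq lies 92986 bases from the start of the deposited gene model. In the Slco1a1 window the nuclear receptor half-site AGGTCA matched at 24 and, as its reverse complement TGACCT, at 134 bases before the start site. The Abcb1a window held the FOXO letters GTAAACA at 20 bases before its start site, and the Slco1a4 and Abcb4 windows held none of the searched letters. Motifs were searched on both strands as fixed letters, where N is any base, in 14 windows of 9 members. GTAAACA was in 1 of these 14 and in 3.17% of 32851 RefSeq windows of the same length. AGGTCA was in 5 of 14 and 14% of all, the antioxidant response letters TGACNNNGC in 3 of 14 and 10.2% of all, the STAT letters TTCNNNGAA in 2 of 14 and 7.02% of all, and the HNF1 half-site GTTAAT in 1 of 14 and 6.43% of all. A match is a description of the letters and says nothing about binding.

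Per length, Slco1b2 was the most abundant of the 10, at 572 ± 73.8 TPM (SD over 12 libraries), above Abcc2 in all 12 libraries. Abcc2 followed at 239 ± 40.6 TPM and exceeded Abcc3, at 178 ± 44.1 TPM, in 10 of 12. Slco2b1 averaged 89.0 ± 11.1 TPM, Abcb4 84.4 ± 31.2 TPM, Slco1a1 59.1 ± 47.9 TPM and Slco1a4 43.1 ± 19.4 TPM. The order among these 4 was not fixed, since each exceeded the next in only 5 to 7 of 12 libraries. Abcg2 came next at 21.9 ± 3.11 TPM, and Abcb1a and Abcc4 were lowest at 5.76 ± 2.63 and 3.61 ± 3.69 TPM. Slco1b2 made up 67.1% to 81.2% of the summed TPM of the 4 uptake carriers, and Abcc2 made up 34.5% to 60.5% of the summed TPM of the 6 exporters.

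**Figure D1:**
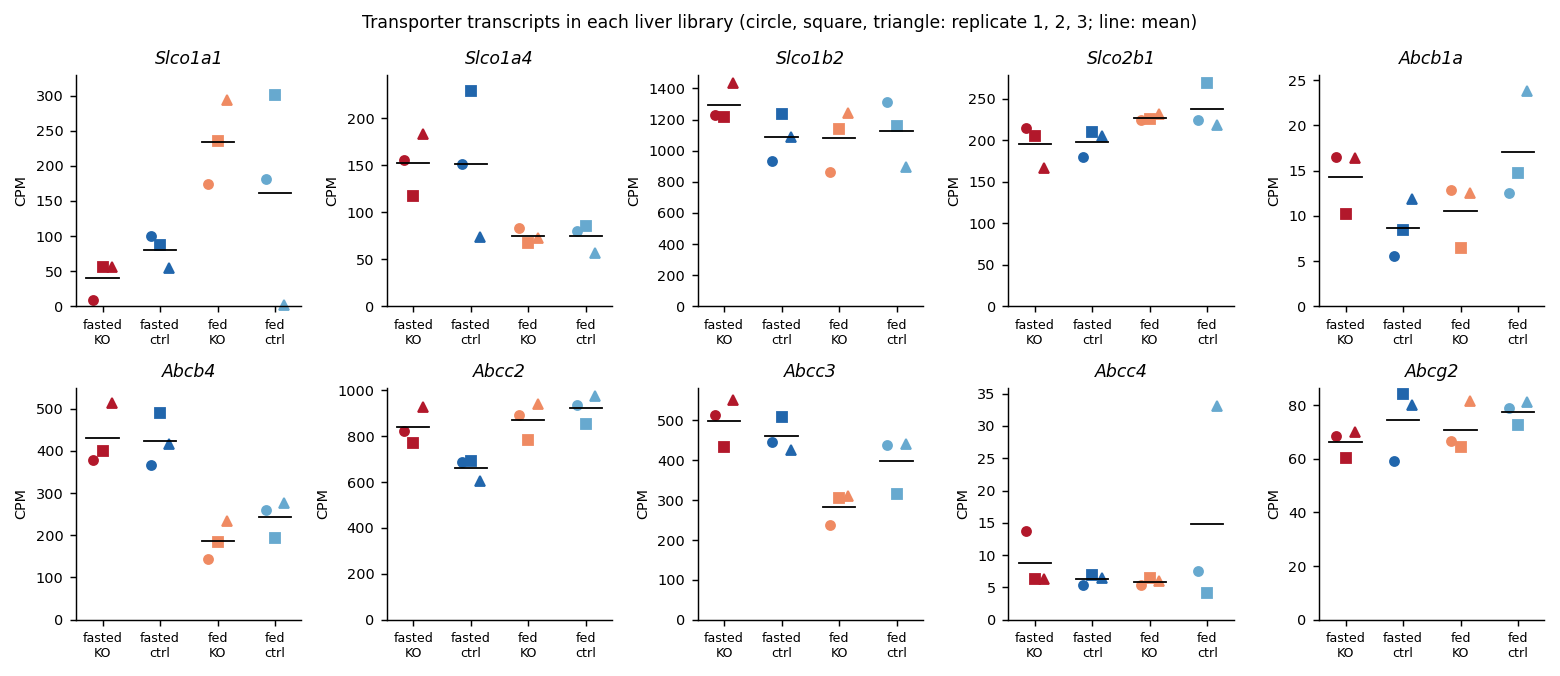
Level of each transporter in CPM (vertical axes from 0, a scale of its own in each panel) in the 12 livers, by group, with a symbol for each replicate and a line at the group mean. Abcb4 was higher in both fasted groups than in both fed groups, and the fed control replicate 3 triangle stands apart for Slco1a1, at 1.95 CPM, and for Abcc4, at 33.0 CPM.

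Overnight fasting raised Abcb4, the phospholipid floppase, in both genotypes. It raised Abcc3, the basolateral conjugate exporter, in knockout livers and in the mean of both genotypes, and raised Slco1a4 in that mean. No other member passed the threshold, and none was called lower. In fasted against fed knockout livers 2 of 10 members were called, against 2.48% of all tested genes, and in fasted against fed control livers 1 of 10, against 4.14%. In the mean of both genotypes 3 of 10 were called, against 9.07%. Groups did not overlap for 5 of 10 members with fasting in knockout livers, where 23.3% of all tested genes did not overlap, and for 4 of 10 in control livers, where the share was 22.4%. The median fasting change of the 10 members was 0.35 in knockout and -0.16 in control livers, with -0.0059 and -0.0035 over all tested genes. With only 10 members, these shares and medians are a description.

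Slco1a4 was the uptake carrier that rose with fasting in the mean of both genotypes. It had 156.2, 117.9 and 183.1 CPM in fasted knockout livers, against 83.1, 67.7 and 72.8 CPM in fed knockout livers. Its levels in fasted control livers were 151.0, 229.4 and 73.5 CPM, against 80.5, 86.0 and 56.9 CPM in fed control livers. The knockout groups did not overlap, while fasted control replicate 3 lay within the fed control range. The change was 1.03 (SE 0.343, edgeR adjusted p 0.178) in knockout and 1.02 (SE 0.343, edgeR adjusted p 0.135) in control livers, and 1.03 in the mean of both genotypes (SE 0.243, edgeR adjusted p 0.0259), about 2.04-fold. The call in the mean was lost with no filter on low counts (adjusted p 0.0786) and without fed knockout replicates 2 or 3 or fasted knockout replicates 1 or 3 (adjusted p 0.0512 to 0.0644). Without fed control replicate 3 it was also lost (adjusted p 0.0643). In control livers alone the change was called without fasted control replicate 3 (1.35, adjusted p 0.0188) and with DESeq2 (1.02, adjusted p 0.0219). Without fed control replicate 3 the change in control livers was 0.85 (SE 0.397, edgeR adjusted p 0.331). In knockout livers alone it was called with DESeq2 (1.04, adjusted p 0.0235), in a fit of the compared groups only (1.03, adjusted p 0.0126) and without fasted control replicate 3 (1.04, adjusted p 0.0304).

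Slco1a1, which carries steroid conjugates and bile acids, spread most of all members. It had 8.85, 56.1 and 55.5 CPM in fasted knockout livers, against 174.6, 235.1 and 293.9 CPM in fed knockout livers, with no overlap. Its levels were 99.5, 87.2 and 54.6 CPM in fasted control livers, against 180.7, 300.1 and 1.95 CPM in fed control livers. The groups overlapped in control livers only through fed control replicate 3, whose value rests on 43 counts with an exact Poisson 95% interval of 31.1 to 57.9 that covers counting error only. The change was -2.55 in knockout (SE 1.25, edgeR adjusted p 0.4) and -1.0 in control livers (SE 1.19, edgeR adjusted p 0.703). Without fed control replicate 3 the control change was -1.59 (SE 0.677, edgeR adjusted p 0.301), and in 3 of 22 alternatives, limma-voom and limma on TPM, it had the other sign, up to 0.72. In the mean of both genotypes it was -1.77 (adjusted p 0.255), and without fed control replicate 3 it was -2.07 (SE 0.467, edgeR adjusted p 0.0336). The lowest knockout value came from fasted knockout replicate 1, which also had the lowest level of 5 of 16 male-biased liver genes. Of the stretches of 75 bases in Slco1a1 transcripts, 1.08% also occur in Slco1a4, so few reads could be split between them.

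Slco1b2, the mouse counterpart of the main human liver carriers of this family, differed little between groups. Its levels were 1231, 1219 and 1432 CPM in fasted knockout, 934.0, 1236 and 1086 CPM in fasted control, 862.8, 1141 and 1239 CPM in fed knockout and 1315, 1160 and 898.1 CPM in fed control livers. The groups overlapped in each fasting and each genotype comparison. The fasting change was 0.26 in knockout and -0.05 in control livers (SE 0.18 in each, edgeR adjusted p 0.566 and 0.914).

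Slco2b1, a carrier with a broad range of steroid sulfates and drugs, had lower values in all fasted livers than in the fed livers of the same genotype. It had 215.0, 205.0 and 167.1 CPM in fasted knockout livers, against 224.6, 225.9 and 231.3 CPM in fed knockout livers, and 180.3, 209.7 and 204.6 CPM in fasted control livers, against 224.8, 269.0 and 218.5 CPM in fed control livers. Neither genotype's groups overlapped, but the changes of -0.22 and -0.26 did not pass (SE 0.122 in each, edgeR adjusted p 0.46 and 0.265). An antisense gene, Gm15635, overlaps Slco2b1 by 7371 bases, and the Slco2b1 to Gm15635 count ratio was 4.02 to 4.48 in every library. The libraries keep strand, but the strand setting used in counting is not given in the sources used here, so reads of the pair cannot be told apart.

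**Figure D2:**
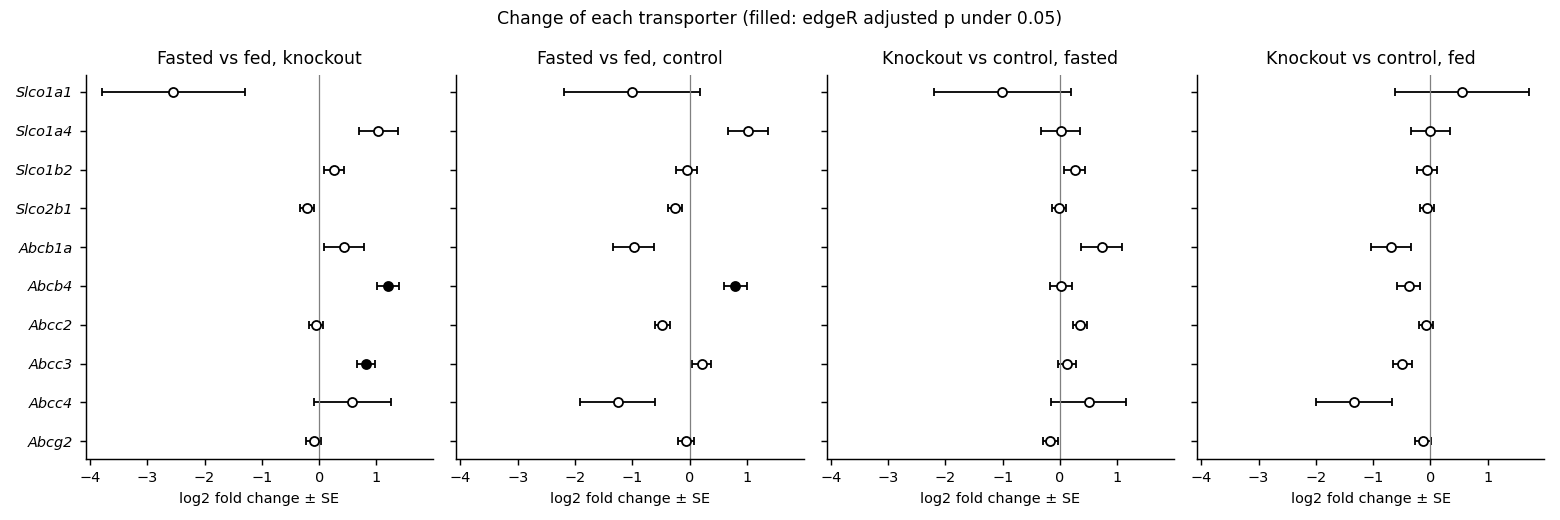
Log2 fold change of each transporter with its SE (horizontal axis) in 4 comparisons, filled where the edgeR adjusted p was under 0.05. The filled points are Abcb4 in both fasting comparisons and Abcc3 in knockout livers, at 0.81, and no point is filled in the knockout against control panels.

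At the canalicular membrane, Abcb4 had 377.9, 398.7 and 512.4 CPM in fasted knockout livers, against 142.8, 184.0 and 234.2 CPM in fed knockout livers. Its levels in fasted control livers were 366.2, 489.9 and 416.4 CPM, against 260.3, 194.3 and 275.8 CPM in fed control livers. Every fasted liver of either genotype was above every fed liver. The change was 1.20 in knockout (SE 0.199, edgeR adjusted p 0.00897) and 0.80 in control livers (SE 0.197, edgeR adjusted p 0.0391), and 1.0 in the mean of both genotypes (SE 0.14, edgeR adjusted p 0.000911). The call in control livers was lost in 9 of 22 alternatives, with adjusted p of 0.0529 to 0.141, among them limma on TPM, a fit of control livers alone, and leaving out fed knockout replicate 2, fasted knockout replicate 2, fed control replicates 1 or 2, or fasted control replicates 2 or 3. The knockout call held in 22 of 22 and the mean call in 21 of 21.

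Abcc2, which exports conjugated bilirubin, was lowest in fasted control livers. It had 824.4, 769.3 and 927.9 CPM in fasted knockout livers, 686.9, 692.7 and 604.3 CPM in fasted control livers, 891.3, 785.2 and 941.9 CPM in fed knockout livers and 935.3, 854.1 and 974.3 CPM in fed control livers. The fasted control group overlapped neither of the groups it is compared with. The fasting change in control livers was -0.48 (SE 0.128), just short of a call at an edgeR adjusted p of 0.0552. It was called in 4 of 22 alternatives: upper-quartile factors (0.039), a filter of 1 CPM in 3 libraries (0.0478), limma-voom (0.049) and DESeq2 (0.00118). In the others the adjusted p ranged up to 0.169. Without fed control replicate 3, the library with the highest Abcc2, the change was -0.44 (SE 0.134, edgeR adjusted p 0.101). In knockout livers the change was -0.05 (SE 0.128, edgeR adjusted p 0.903). The interaction of 0.42 did not pass (edgeR adjusted p 0.672), so the fasting changes were not shown to differ between genotypes.

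Abcg2 varied little, at 68.3, 60.4 and 69.8 CPM in fasted knockout, 59.2, 84.0 and 80.1 CPM in fasted control, 66.6, 64.3 and 81.7 CPM in fed knockout and 78.9, 72.5 and 81.2 CPM in fed control livers. Its fasting changes were -0.10 in knockout and -0.06 in control livers (SE 0.136 and 0.135, edgeR adjusted p 0.81 and 0.855). Abcb1a was low, with 16.5, 10.2 and 16.4 CPM in fasted knockout livers, against 12.8, 6.41 and 12.5 CPM in fed knockout livers. In control livers it had 5.59, 8.43 and 11.8 CPM when fasted, against 12.5, 14.8 and 23.8 CPM when fed, and these did not overlap. Its changes of 0.44 in knockout (SE 0.354) and -0.98 in control livers (SE 0.355) did not pass (edgeR adjusted p 0.642 and 0.161), and DESeq2 called the one in control livers (-0.99, adjusted p 0.0483). Without fed control replicate 3 the change in control livers was -0.66 (SE 0.355, edgeR adjusted p 0.399). The interaction of 1.42 had an unadjusted edgeR p of 0.017 and an adjusted p of 0.623, and without fed control replicate 3 it was 1.10. Of the 75-base stretches of Abcb1a, 11.9% also occur in its paralog Abcb1b, which had at most 4.08 CPM, so Abcb1a values are uncertain where the authors' counting could split such reads.

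Of the basolateral exporters, Abcc3 had 515.0, 432.2 and 550.6 CPM in fasted knockout livers, against 237.1, 304.7 and 310.0 CPM in fed knockout livers. It had 446.9, 508.5 and 425.5 CPM in fasted control livers, against 437.5, 316.0 and 441.0 CPM in fed control livers. The knockout groups did not overlap, and the control groups did. The change was 0.81 in knockout (SE 0.162, edgeR adjusted p 0.0206) and 0.21 in control livers (SE 0.16, edgeR adjusted p 0.518), with an interaction of 0.60 that did not pass (edgeR adjusted p 0.624). In the mean of both genotypes it was 0.51 (SE 0.114, edgeR adjusted p 0.0135), and this call held in 21 of 21 alternatives. The knockout call was lost in limma on TPM (adjusted p 0.0528 and 0.0529) and without fed knockout replicates 1 or 2 or fasted knockout replicates 1 or 3 (0.0561 to 0.112).

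Abcc4, which returns bile acids and nucleotides to blood, had 13.7, 6.29 and 6.34 CPM in fasted knockout, 5.39, 6.85 and 6.46 CPM in fasted control, 5.33, 6.41 and 5.92 CPM in fed knockout and 7.50, 4.12 and 33.0 CPM in fed control livers. All values but 2, those of fasted knockout replicate 1 and fed control replicate 3, lay between 4.12 and 7.50 CPM. The fasting change in control livers was -1.26 (SE 0.657, edgeR adjusted p 0.332) and became 0.10 without fed control replicate 3.

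No transporter passed the threshold in any comparison of knockout with control. In edgeR, 0 of 10 were called in fed livers, against 0.0% of all tested genes, 0 of 10 in fasted livers, against 0.0315%, 0 of 10 in the mean of both feeding states, against 0.0126%, and 0 of 10 in the interaction, against 0.0063%. DESeq2 called 0 in each of the 4 as well, of 8 members with an adjusted p in fed livers and of 10 in the others. At an unadjusted p under 0.05 edgeR gave 1 member in fed livers, 1 in fasted livers, 0 in the mean and 3 in the interaction. The 1 in fed livers was Abcc3, at -0.49 (SE 0.161, p 0.00966, edgeR adjusted p 0.795), with 237.1 to 310.0 CPM in fed knockout livers and 316.0 to 441.0 CPM in fed control livers. The 1 in fasted livers was Abcc2, at 0.35 (SE 0.128, p 0.0182, edgeR adjusted p 0.521), with 769.3 to 927.9 CPM in fasted knockout livers and 604.3 to 692.7 CPM in fasted control livers. These were also the only members whose groups did not overlap, 1 of 10 in each feeding state, where 12.3% of all tested genes in fed livers and 14.0% in fasted livers did not overlap. Some fed differences rested on fed control replicate 3. Without it, the knockout against control difference of Abcc4 in fed livers was 0.01 in place of -1.34, and that of Slco1a1 was -0.05 in place of 0.54. That of Abcb1a was -0.38 in place of -0.69, and it kept its sign in 21 of 21 alternatives without passing in any. The comparisons share libraries, so their values are set side by side and are not independent of each other.

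Ratios between transporters within a library do not depend on the scaling between libraries. They were chosen after the values were seen and are given without a test. As background, Abcb11 is the bile salt export pump, and the phospholipid that Abcb4 supplies forms micelles with the bile acids it exports. The Abcb4 to Abcb11 TPM ratio was 0.581, 0.696 and 0.571 in fasted knockout livers, against 0.15, 0.204 and 0.187 in fed knockout livers, and 0.814, 0.844 and 0.818 in fasted control livers, against 0.27, 0.191 and 0.351 in fed control livers. Abcb11 itself had 356.8, 314.0 and 492.5 CPM in fasted knockout livers, against 521.2, 494.2 and 686.2 CPM in fed knockout livers, and 246.9, 318.3 and 279.0 CPM in fasted control livers, against 528.5, 557.6 and 431.3 CPM in fed control livers. Its fasting change was -0.85 in control livers (SE 0.187, edgeR adjusted p 0.0242) and -0.55 in knockout livers (SE 0.187, edgeR adjusted p 0.169). The Abcc3 to Abcc2 TPM ratio was 0.935, 0.841 and 0.888 in fasted knockout livers, against 0.398, 0.581 and 0.493 in fed knockout livers, and 0.974, 1.10 and 1.05 in fasted control livers, against 0.70, 0.554 and 0.678 in fed control livers. Fasted and fed livers overlapped in neither of these ratios in either genotype. The Slco1a4 to Slco1a1 TPM ratio was 14.5, 1.73 and 2.71 in fasted knockout livers, against 0.391, 0.237 and 0.204 in fed knockout livers. In control livers it was 1.25, 2.16 and 1.11 when fasted, against 0.367, 0.236 and 24.0 when fed, where the last is fed control replicate 3.

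**Figure D3:**
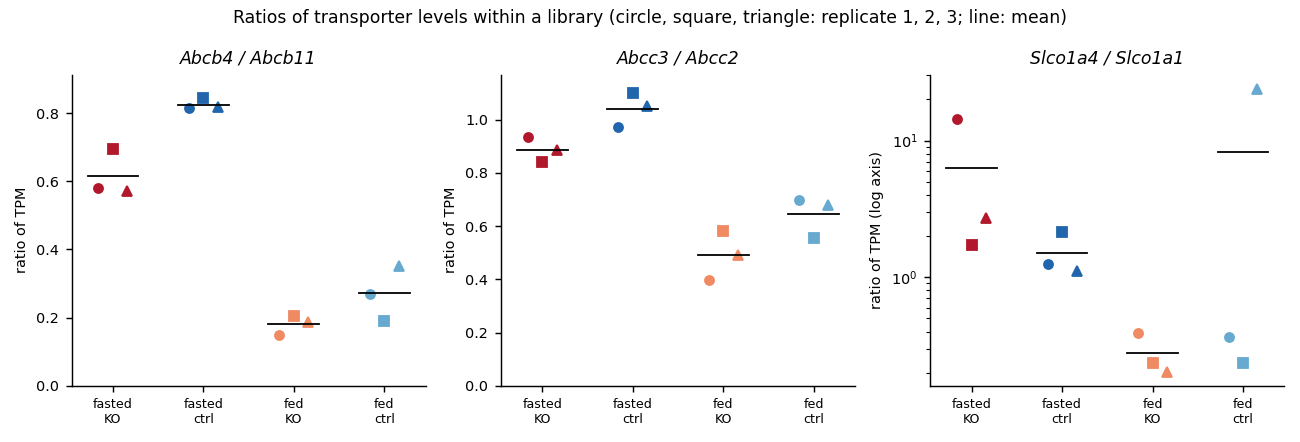
Ratio of TPM of transporter pairs within each library (vertical axes; the right one is logarithmic), by group, with a symbol for each replicate and a line at the mean. Fasted livers lay above fed livers for Abcb4 over Abcb11 and Abcc3 over Abcc2, while fed control replicate 3, at 24.0, was above all others for Slco1a4 over Slco1a1.

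Other genes of transport and of its regulation are described by list. The median fasting change in knockout and in control livers was -0.07 and -0.22 for other solute carriers, -0.42 and -0.30 for other exporters and flippases, 0.24 and 0.20 for transcription factors, 1.43 and 1.29 for PPAR alpha targets, 0.29 and 0.06 for CAR and PXR targets, 0.19 and -0.34 for NRF2 targets, -1.31 and 0.11 for male-biased and 1.62 and 0.17 for female-biased liver genes, beside -0.0059 and -0.0035 for all tested genes. The control medians include fed control replicate 3 and were not computed without it. Its male-biased genes summed to 2855 CPM, against 8010 and 10590 CPM in fed control replicates 1 and 2. Its female-biased genes summed to 405.8 CPM, against 178.5 and 141.3 CPM. Of 18 other tested solute carriers of bile acids and organic ions, 1 rose with fasting in knockout and 1 in control livers, Slc22a5 in each, the carnitine carrier (1.51, edgeR adjusted p 0.00382, and 1.26, edgeR adjusted p 0.00617). In the mean of both genotypes 1 rose and 2 fell, Slc10a2, the ileal-type bile acid carrier, at -1.19 (edgeR adjusted p 0.0127), and Slc22a28 at -1.57 (edgeR adjusted p 0.025). Slc10a1, the sodium-dependent bile acid carrier, had fasting changes of 0.04 in knockout and -0.10 in control livers (SE 0.328 in each, edgeR adjusted p 0.973 and 0.908). Of 17 other exporters and flippases, 1 rose and 2 fell in control livers, and the 1 that rose was Abcc10, at 0.57 (edgeR adjusted p 0.0258). The 2 that fell were Abcb11 and Aqp8, a water channel of the canalicular membrane, at -3.17 (edgeR adjusted p 0.00235). In the mean of both genotypes 1 rose and 6 fell, among them Abca1 at -0.39 (edgeR adjusted p 0.00806) and Atp8b1, the canalicular aminophospholipid flippase, at -0.46 (edgeR adjusted p 0.0122). In knockout livers edgeR called 0 of these 17, against 4 by DESeq2 and 7 with an unadjusted p under 0.05, and Aqp8 was -1.36 (edgeR adjusted p 0.0846). Of 16 scaffold and sorting proteins of the membrane, edgeR called 0 in knockout and 0 in control livers, against 0 in each by DESeq2 and against 1 and 3 with an unadjusted p under 0.05.

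Of 20 transcription factors known to control transporters, 2 rose with fasting in knockout livers and 3 in control livers. Nr1i3, the nuclear receptor CAR that controls drug-metabolising enzymes, had 465.6, 470.6 and 574.9 CPM in fasted knockout livers, against 138.2, 203.3 and 192.3 CPM in fed knockout livers. It had 411.5, 794.8 and 583.1 CPM in fasted control livers, against 341.1, 213.7 and 175.0 CPM in fed control livers. Its fasting change was 1.5 in knockout (SE 0.277, edgeR adjusted p 0.0174) and 1.29 in control livers (SE 0.275, edgeR adjusted p 0.023). Ppara, the fatty acid receptor that is known to raise Abcb4 in mouse liver, rose in knockout livers by 0.56 (SE 0.127, edgeR adjusted p 0.0361), against -0.01 in control livers (SE 0.126, edgeR adjusted p 0.971). Ahr, the aryl hydrocarbon receptor, rose by 0.78 and Cux2, a female-biased repressor, by 2.54 in control livers (edgeR adjusted p 0.0368 and 0.0166). Neither was called in knockout livers alone. In the mean of both genotypes 4 of these 20 factors rose and 1 fell, with Nr1i3, Ahr and Cux2 among those that rose. Nr1h4, the bile acid receptor FXR, had fasting values of 0.26 in knockout and 0.05 in control livers, neither past the threshold (SE 0.143 in each, edgeR adjusted p 0.435 and 0.888).

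Targets of PPAR alpha rose with fasting, 10 of 15 in knockout, 9 of 15 in control livers and 11 of 15 in the mean, with 0 lower. Examples are Cpt1a, which admits fatty acids to mitochondria, at 1.06 and 0.90 (edgeR adjusted p 0.00137 and 0.00205), and Cyp4a14, a fatty acid hydroxylase, at 4.68 and 3.27 (edgeR adjusted p 0.00382 and 0.00976). Of 15 other targets of CAR and PXR, edgeR called 0 in knockout livers, against 4 by DESeq2 and 5 with an unadjusted p under 0.05, and 1 lower in control livers, Cyp2c55 at -2.45 (edgeR adjusted p 0.00769). In the mean 1 was higher and 1 lower, Ugt1a1, which conjugates bilirubin, at 0.54 (edgeR adjusted p 0.0171) and Cyp2c55 at -1.93 (edgeR adjusted p 0.00135). Of 12 targets of NRF2, edgeR called 0 in knockout livers, against 0 by DESeq2 and 1 with an unadjusted p under 0.05. In control livers edgeR called 0 of these 12, against 2 by DESeq2 and 2 with an unadjusted p under 0.05. Fed control replicate 3 had the highest level of 8 of these 12. Of 7 targets of AhR, 1 was called in the mean, Tiparp at -0.56 (edgeR adjusted p 0.0143). Of 16 male-biased liver genes, 5 fell in knockout livers and 1 in control livers with 0 higher, and Nudt7, a coenzyme A hydrolase, was -1.63 and -1.55 (edgeR adjusted p 0.0174 and 0.0154). Of 15 female-biased genes, 2 rose in knockout livers and 1 in control livers, Cux2.

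Cholangiocyte markers, which mark cells that also hold exporters, summed to 57.9 to 81.1 CPM in fasted knockout, 68.2 to 84.4 CPM in fasted control, 72.1 to 104.5 CPM in fed knockout and 61.5 to 178 CPM in fed control livers. Of 8 tested, 1 fell with fasting in knockout livers, Sox9 at -1.20 (edgeR adjusted p 0.0377). Kupffer cell and macrophage markers summed to 438.5 to 581.7 CPM in fasted knockout, 456.4 to 1054 CPM in fasted control, 474.4 to 859.2 CPM in fed knockout and 488.6 to 867.7 CPM in fed control livers. Stellate cell markers summed to 261.0 to 519.8 CPM in fasted knockout, 327.3 to 476.6 CPM in fasted control, 292.0 to 452.7 CPM in fed knockout and 461.8 to 761.5 CPM in fed control livers. Liver endothelial markers summed to 293.7 to 397.9 CPM in fasted knockout, 297.3 to 429.1 CPM in fasted control, 364.5 to 476.8 CPM in fed knockout and 359.6 to 534.8 CPM in fed control livers. T, NK and B cell markers summed to 17.0 to 21.0 CPM in fasted knockout, 23.1 to 50.5 CPM in fasted control, 22.5 to 29.0 CPM in fed knockout and 20.2 to 54.4 CPM in fed control livers. No marker was at 0 in all libraries, and the part of these cells in the transporter values was not tested.

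The SD of log2 CPM over the 12 libraries was 2.15 for Slco1a1, 0.785 for Abcc4 and 0.647 for Slco1a4, and for the other members it ranged down to 0.175 for Slco2b1. For each of these 3 members, the 4 genes with the smallest root mean square difference in mean-centred log2 CPM were found among tested genes with a mean of at least 1 CPM. For Slco1a1, whose own root mean square deviation was 2.06, they were Mup11 at 0.853, Mup7 at 0.974, Egfr at 1.18 and Cadm4 at 1.23. Mup11 and Mup7 encode major urinary proteins and Egfr the epidermal growth factor receptor. For Abcc4, at 0.751, they were Limk1 at 0.316, Pdk4 at 0.34, Haus8 at 0.379 and Anxa2 at 0.386. For Slco1a4, at 0.619, they were Pllp at 0.292, Acsl1 at 0.294, the antisense gene Gm45767 at 0.302 and Rtn4rl1 at 0.315. Acsl1 encodes a ligase that joins long-chain fatty acids to coenzyme A. In a ranking without fed control replicate 3, chosen after seeing the data, the genes near Slco1a4 had ranks 2, 4, 5 and 1, those near Slco1a1 had ranks 14, 43, 22 and 48, and those near Abcc4 had ranks 140, 643, 2503 and 2729. The likeness to Abcc4 therefore rests on that library, and which 4 genes were nearest to Slco1a1 depended on it too. Without it, the root mean square deviation of Slco1a1 itself was 1.42 in place of 2.06.

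**Figure D4:**
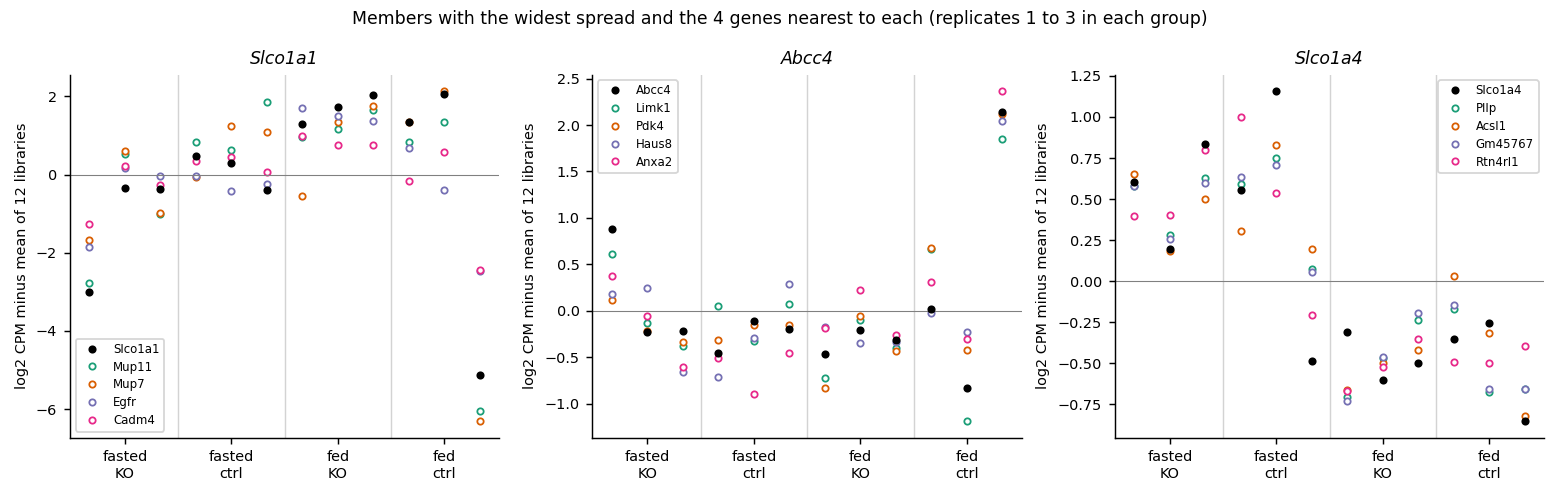
Mean-centred log2 CPM (vertical axis) of Slco1a1, Abcc4 and Slco1a4 (filled) and of the 4 genes nearest to each (open) in the 12 libraries, replicates 1 to 3 from left to right within each group. Fed control replicate 3, at the far right, holds the lowest value of Slco1a1, at -5.12, the highest of Abcc4 and the lowest of Slco1a4, at -0.852. In that library Mup7 lay lower than Slco1a1, at -6.31. Slco1a4 also varied across the fasted livers.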

How the data were processed

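Per the labels' protocols, poly(A) RNA from frozen liver was made into strand-specific libraries. Per the submitters' processing notes, the tools included HISAT2 2.1.0 and featureCounts 1.6.3, with build mm10. Neither the strand setting nor the handling of reads that match several genes is given in the sources consulted. The deposited files hold raw counts for each Ensembl gene and, over the same genes, TPM, with 1 column per library. All columns were assigned to samples by library name.

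Counts were tested with edgeR 4.0.16 in R 4.3.3 (filterByExpr, TMM factors of 0.923 to 1.12, robust quasi-likelihood, 1 fit of 4 group means, 7 contrasts, 2-sided, Benjamini-Hochberg within a comparison). The code was tested on simulated data. TPM was used for levels between genes and, with limma 3.58.1, as an alternative on log2(TPM + 1) and log2(TPM + 0.1) after a filter of 0.5 TPM in 3 libraries. Other alternatives were RLE and upper-quartile factors, no filter, limma-voom, a filter of 1 CPM in 3 libraries, the DESeq2 test (1.42.0), compared groups only, a replicate block and leaving out each library. Replicate numbers were not used as pairs.

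The members, lists and tests were chosen with earlier results of these data known. All 10 members are named; of 18 other lists, up to 4 called genes per list and comparison with the smallest p, and fixed relatives and regulators, may be named. Promoters came from RefSeq GRCm38.p6. Replicates are separate animals.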

Additional observations from a re-analysis of the deposited data

How the results depend on the processing

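In fasted against fed control livers, where 1 member passed (Abcb4), 2 passed with upper-quartile factors, with a filter of 1 CPM in 3 libraries and with limma-voom (Abcb4 and Abcc2), and 4 with DESeq2 (Abcb1a, Abcb4, Abcc2 and Slco1a4). The count was 0 with limma on log2(TPM + 1), 0 with limma on log2(TPM + 0.1) and 0 with compared groups only, and leaving out a library gave 0 to 1. In fasted against fed knockout livers, where 2 passed (Abcb4 and Abcc3), limma on log2(TPM + 1) gave 1 and limma on log2(TPM + 0.1) gave 1 (Abcb4), while DESeq2 gave 3 and compared groups only gave 3 (Slco1a4 added), and leaving out a library gave 1 to 3. The cause of these changes was not tested. In the mean of both genotypes 3 passed, DESeq2 gave 4 (Abcc2 added), no filter on low counts gave 2 (Slco1a4 lost), and leaving out a library gave 2 to 3. No alternative called a member in a knockout against control comparison or in the interaction. Over single members, 1475 alternative values stayed on their side of the threshold, 12 newly passed and 21 no longer passed; no called value changed sign.

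Same-numbered libraries of different groups deviated together with correlations of -0.284 to 0.184. No label says that the numbers pair animals. These correlations cannot exclude a pairing, because each rests on deviations from means of 3 libraries. With a replicate block the counts were 0, 0 and 0 for knockout against control (fed, fasted and mean), 2, 1 and 3 for fasting (knockout, control and mean) and 0 for the interaction. Depth limits Slco1a1 in 1 library, Abcb1a and Abcc4 most, with 43, 113 and 88 counts in their lowest libraries.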
